A study of Mus musculus with 52 samples.

Results

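Slc7a5, Slc3a2, Slc7a1, Slc38a2, Slc38a3, Slc38a5, Slc1a1, Slc1a4 and Slc6a6 are 9 mouse genes that encode transporters of amino acids or of taurine. They were taken by name, with earlier results of these data known. They are 9 of the 49585 genes with an estimate in these libraries, of which 33099 had a count above 0. All 9 were followed in the 40 RNA libraries and in the 12 lists of open chromatin described here, and all 9 passed the filter on low counts in each fit over all libraries of a kind.

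The study asked what stabilized beta-catenin does to endothelial cells (ECs) whose vessels lack a blood-brain barrier. RNA-seq covered cells from cerebellum and from both lobes of the pituitary, anterior and posterior, which were sorted into a GFP-positive fraction (ECs) and a GFP-negative fraction (parenchyma) by a Tie2-GFP transgene. RiboTag covered the cerebral cortex and the choroid plexus, as RNA bound to tagged ribosomes of ECs and as the input RNA of the whole tissue, and ATAC-seq covered the GFP-positive cells. Each combination of tissue, fraction and genotype had 2 replicates, which gave 24 sorted RNA libraries, 16 RiboTag libraries and 12 ATAC-seq libraries. WT mice of the sorted experiment carried Tie2-GFP alone. Stabilized mice carried Tie2-GFP, Pdgfb-CreER and the Ctnnb1flex3 allele, from which Cre removes exon 3 of beta-catenin, and received 100 µg of 4-hydroxytamoxifen (4HT) at day 10, so that these genotypes differ also in the Cre transgene and in 4HT. In the RiboTag experiment both genotypes carried the tagged Rpl22 allele and Pdgfb-CreER and received 4HT, the stabilized mice carried Ctnnb1flex3 in addition, and tissue was taken at 6 to 8 weeks of age. The sorted tissues came from male mice of 30 to 90 days, with 20 to 30 pituitaries pooled per replicate, and choroid plexi of 3 to 4 animals were pooled per sample. p-values therefore measure the spread between 2 preparations per group.

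Large neutral amino acids such as leucine and tryptophan cross the blood-brain barrier through a heterodimer of SLC7A5 (LAT1), the transport subunit, and SLC3A2 (4F2hc, CD98), the heavy chain that carries it to the membrane. SLC7A1 (CAT1) carries the cationic amino acids arginine and lysine. SLC38A2 (SNAT2), SLC38A3 (SNAT3) and SLC38A5 (SNAT5) are sodium-coupled carriers of glutamine and other neutral amino acids, SLC1A1 (EAAC1) takes up glutamate and aspartate, SLC1A4 (ASCT1) exchanges alanine, serine and cysteine, and SLC6A6 (TauT) takes up taurine. ECs of fenestrated vessels, such as those of the pituitary and the choroid plexus, let small solutes pass and are not known for this set of carriers.

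The genes lie on 8 chromosomes of GRCm38, with Slc3a2 (chr19:8706882-8723369, minus strand) and Slc1a1 (chr19:28835049-28913960, plus strand) on the same one. Slc7a5 spans chr8:121881150-121907694 and Slc7a1 spans chr5:148327410-148399904, both on the minus strand. At 3 of the 9 genes one stretch of chromatin was listed as open in both replicates of stabilized ECs from both pituitary lobes, in neither WT replicate of either lobe, and in both replicates of WT cerebellum ECs. These stretches, chosen after the peaks were seen, are shown because they are the places where the chromatin of these genes differed between genotypes in both lobes. Of 22015 protein-coding genes, 1.30% had such a site in the gene body or within 10 kb of it. The 241 bases around the midpoint of both lobes' strongest summits are given 5′ to 3′ on the plus strand of GRCm38, in lower case, with matches to TTCAAAG or ATCAAAG on either strand (the letters of a TCF/LEF site, the DNA-binding partners of beta-catenin) in capitals.
Slc7a5, chr8:121913503-121913743, centred 5929 bp upstream of the gene: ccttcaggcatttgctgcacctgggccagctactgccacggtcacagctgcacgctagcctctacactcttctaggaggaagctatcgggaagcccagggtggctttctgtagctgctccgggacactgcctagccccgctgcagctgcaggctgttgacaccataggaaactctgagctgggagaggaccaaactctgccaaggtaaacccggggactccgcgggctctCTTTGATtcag
Slc7a1, chr5:148392882-148393122, centred 6902 bp inside the gene: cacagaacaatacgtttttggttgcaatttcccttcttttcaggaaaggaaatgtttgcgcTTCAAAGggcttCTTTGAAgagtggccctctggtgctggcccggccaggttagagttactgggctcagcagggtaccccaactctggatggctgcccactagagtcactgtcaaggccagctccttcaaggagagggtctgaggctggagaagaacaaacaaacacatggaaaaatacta
Slc1a1, chr19:28887383-28887623, centred 52454 bp inside the gene: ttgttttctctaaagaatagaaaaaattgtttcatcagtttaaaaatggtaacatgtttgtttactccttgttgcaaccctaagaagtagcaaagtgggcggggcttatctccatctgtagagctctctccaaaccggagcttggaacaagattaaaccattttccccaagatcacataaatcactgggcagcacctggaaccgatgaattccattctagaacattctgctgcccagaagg
The Slc7a5 sequence holds 1 match, the Slc7a1 sequence holds 2, on opposite strands, and the Slc1a1 sequence holds none. The Slc7a5 site lies inside the annotated locus Gm20388, the Slc1a1 site in an intron. The Slc7a1 stretch is intronic in the long coding transcript and lies in an exon of a retained-intron transcript.

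Sorted libraries held 12157485 to 37529274 estimated reads, and RiboTag libraries 6409013 to 21399125. TPM, the authors' value per length and library, was not on one scale across libraries. The non-coding feature Gm23935 alone took 31.0% to 52.2% of all TPM in 12 of the 16 RiboTag libraries and 0.123% to 0.409% in the 4 WT cortex libraries, which stand apart and are all of one genotype. Levels across libraries are therefore given as counts scaled to a common library size with TMM (normalized CPM), and TPM is used to order genes within a library, as a second scale beside some differences and for the likeness of genes over the EC libraries. Genotype in cortex, and tissue between WT cortex and WT choroid plexus, cannot be told apart from this difference between libraries. One stabilized anterior pituitary EC library bears both lobes' names in its labels and was taken as anterior by its title.

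In WT ECs most of the 9 genes were far higher in the cerebellum, whose vessels have a blood-brain barrier, than in either pituitary lobe. Slc7a5 had 1120 and 1550 normalized CPM in the replicates of WT cerebellum ECs, 79.5 and 84.4 in the anterior pituitary, and 15.1 and 0.234 in the posterior pituitary. Each cerebellum library was above each pituitary library, and the ratio between the replicates was largest in the posterior pituitary pair. The cerebellum was higher by 4.03 on the log2 scale (SE 1.02) than the anterior lobe and by 7.41 (SE 1.19) than the posterior lobe, with edgeR adjusted p of 0.0377 and 0.00255. Its partner Slc3a2 differed less, with 916 and 927 CPM in the cerebellum, 483 and 640 in the anterior lobe and 468 and 364 in the posterior lobe. The difference from the posterior lobe was 1.14 (SE 0.25, edgeR adjusted p = 0.0204), and that from the anterior lobe did not pass at 0.71 (SE 0.25, edgeR adjusted p = 0.163). On mean TPM the Slc3a2 difference from the posterior lobe turned sign, to a log2 ratio of -0.07.

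Of the carriers of cationic amino acids and glutamine, Slc7a1 had 655 and 1160 CPM in WT cerebellum ECs against 34.0 and 63.4 in the anterior and 43.7 and 24.2 in the posterior pituitary. Slc38a3 had 453 and 705 CPM in the cerebellum, 24.4 and 23.5 in the anterior lobe and 1.56 and 2.93 in the posterior lobe, with no overlap between any of the tissues. Slc38a5 had 145 and 374 CPM in the cerebellum, no read in either anterior pituitary library, and 0 and 0.586 in the posterior pituitary. Against a floor of 3 counts over the 2 anterior libraries, Slc38a5 was at least 5820-fold higher in the cerebellum. Slc38a2 had 180 and 89.6 CPM in the cerebellum, 222 and 286 in the anterior lobe and 133 and 174 in the posterior lobe, and passed neither test, although it was called lower in the cerebellum than in the anterior lobe without the first cerebellum replicate (-1.5, edgeR adjusted p = 0.0212).

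Slc1a1, the glutamate transporter, had 175 and 273 CPM in WT cerebellum ECs, 12.1 and 14.1 in the anterior pituitary and 3.69 and 0.117 in the posterior pituitary. Slc6a6, the taurine transporter, was the most abundant of the 9 by counts in the cerebellum, at 2730 and 2230 CPM. It had 138 and 171 CPM in the anterior and 1190 and 970 in the posterior lobe, so that here the posterior pituitary was the closer to the cerebellum. Slc1a4 was near the limit of detection in ECs, at 0.813 and 11.1 CPM in the cerebellum and 0 to 2.16 in the pituitary lobes. Between cerebellum and anterior lobe 6 of the 9 genes were called higher in the cerebellum at an adjusted p under 0.05 and at least 2-fold, against 3.0% of the 17915 genes tested, and between cerebellum and posterior lobe 7 of the 9 were, against 2.3%. The median log2 difference of the 9 was 4.03 and 4.73, where that of all genes was 0.00 in both. Between the lobes 2 of the 9 were called, against 0.994% of all genes. Slc38a3 was higher in the anterior lobe by 3.43 (SE 0.56, edgeR adjusted p = 0.0106) and Slc6a6 was higher in the posterior lobe (log2 difference, anterior minus posterior, -2.81, SE 0.30, edgeR adjusted p = 0.000616). The calls of Slc7a5 (cerebellum against anterior lobe), Slc3a2 and Slc6a6 (cerebellum against posterior lobe) each held in 2 of the 4 fits that left out 1 library, with edgeR adjusted p up to 0.110, 0.0978 and 0.118. Slc7a5 lost its call without either WT anterior replicate, Slc3a2 without the second replicate of either tissue, and Slc6a6 without the first cerebellum or the second posterior replicate. A fit of the 4 libraries of cerebellum and posterior lobe alone kept Slc7a1, Slc38a3 and Slc38a5. In bulk samples a smaller share of cells of a type and less RNA per cell cannot be told apart. A list of 6 pituitary hormone genes summed to 434 to 5610 CPM in the WT pituitary GFP-positive libraries and to 26.4 and 28.7 in the cerebellum ones, while 10 endothelial markers summed to 10300 to 17800 CPM in all 6. In the other direction, 7 mural cell markers summed to 3170 and 3020 CPM in the cerebellum and to 548 to 918 in the pituitary libraries, and 4 erythrocyte markers to 31800 and 3950 against 698 to 2020. The part of RNA of these other cells in the differences was not tested.

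**Figure D1:**
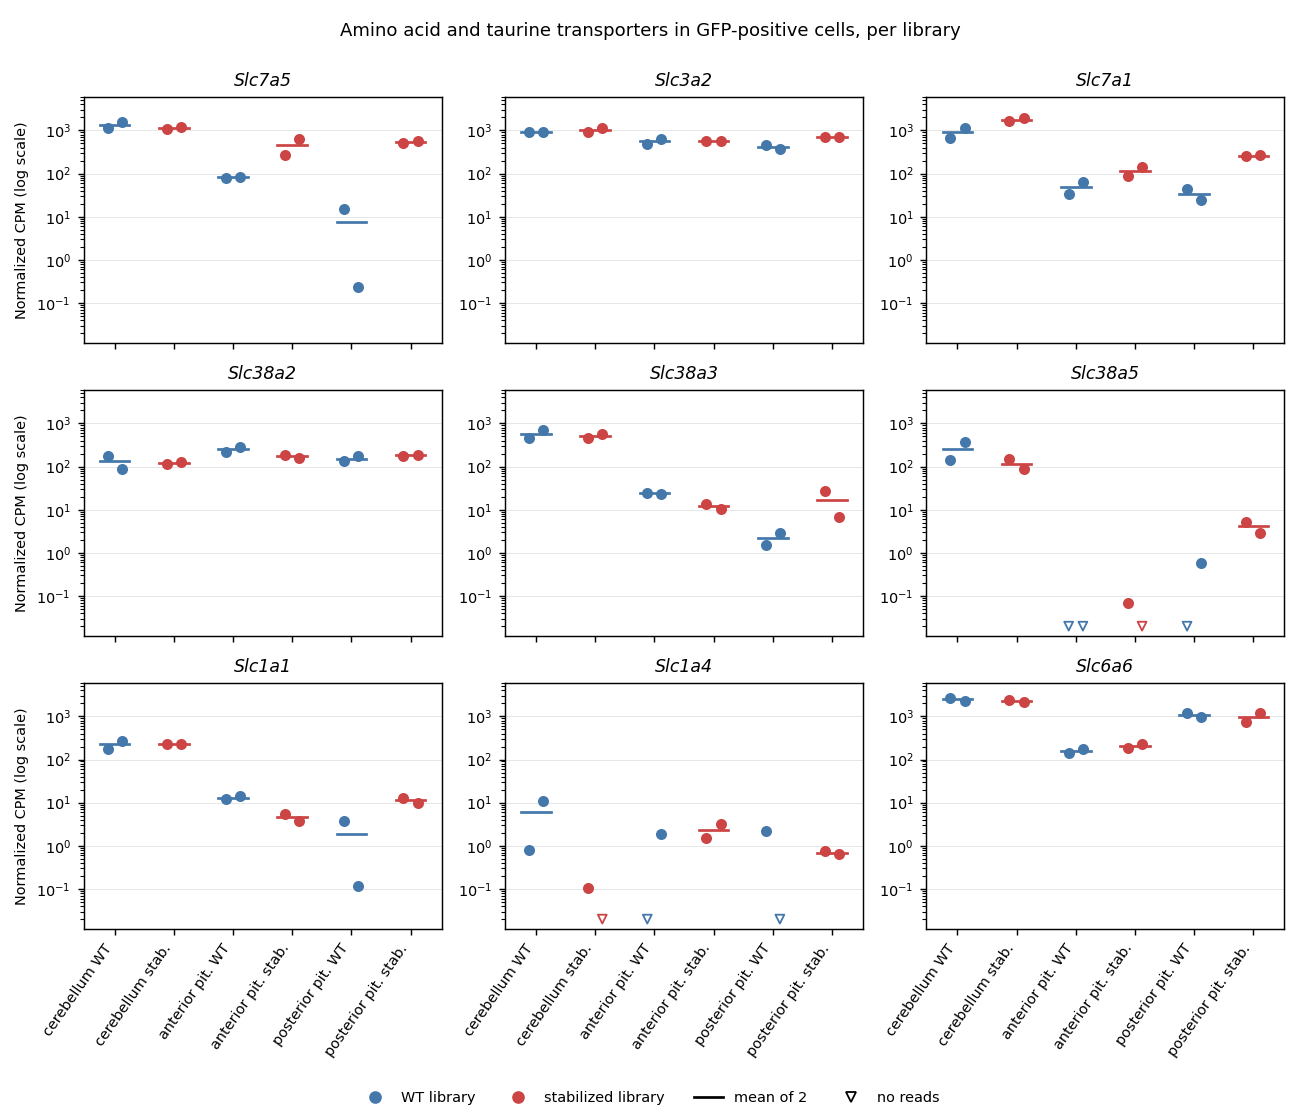
Normalized CPM of each of the 9 genes in the 12 libraries of GFP-positive cells, on a log scale, with WT libraries in blue and stabilized libraries in red, a line for the mean where both libraries had reads, and an open triangle for a library with no reads. Slc7a5 in posterior pituitary ECs goes from 15.1 and 0.234 in WT to 513 and 576 in stabilized libraries, while Slc38a2 stays between 89.6 and 286 in all of them.

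When beta-catenin was stabilized, 3 of the 9 genes rose in posterior pituitary ECs, against 1.25% of the 17915 genes tested that were called higher there (1.79% in either direction). Slc7a5 had 513 and 576 CPM in the stabilized libraries against 15.1 and 0.234 in WT, a log2 fold change of 6.10 (SE 1.13, edgeR adjusted p = 0.0191). Both stabilized libraries were above both WT libraries, and the size of the change rests on the lower WT replicate, since it was 5.14 without that library and 11.15 without the other. Slc7a1 rose from 43.7 and 24.2 CPM to 257 and 265, by 2.91 (SE 0.42, edgeR adjusted p = 0.00384). On mean TPM the log2 ratio was smaller, at 4.09 for Slc7a5, 1.18 for Slc7a1 and 2.5 for Slc38a3. Slc38a3 rose from 1.56 and 2.93 to 26.8 and 6.69 CPM, by 2.90 (SE 0.55, edgeR adjusted p = 0.0229), and it no longer passed without the first stabilized replicate, at 1.57 (edgeR adjusted p = 0.0986). A fit of these 4 libraries alone kept Slc7a1 and lost Slc7a5 (edgeR adjusted p = 0.209) and Slc38a3 (0.284), and an offset for gene length lost all 3, with edgeR adjusted p of 0.0616 to 0.0914 and log2 changes of 2.08 to 5.20, and called Slc1a1 (4.09, edgeR adjusted p = 0.0493).

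The remaining 6 genes did not pass in the posterior pituitary. Slc38a5 had 0 and 0.586 CPM in WT and 5.32 and 2.95 in stabilized ECs (log2 4.09, SE 1.02, edgeR adjusted p = 0.075), and Slc1a1 had 3.69 and 0.117 against 12.6 and 9.92 (2.46, SE 0.77, edgeR adjusted p = 0.161). Neither pair of groups overlapped. Slc3a2 had 468 and 364 CPM in WT and 700 and 713 in stabilized ECs (0.74, SE 0.25, edgeR adjusted p = 0.198), whereas its mean TPM was lower in the stabilized libraries (log2 ratio -1.11). Slc6a6 (1190 and 970 against 746 and 1170 CPM), Slc38a2 (133 and 174 against 173 and 189) and Slc1a4 (2.16 and 0 against 0.739 and 0.646) overlapped between genotypes, and the SE of Slc1a4 was 2.62. Slc38a5 was called in 3 of the 4 fits without 1 library, at 2.81 to 9.85, and Slc1a1 was called without the first WT replicate, at 6.53. The median log2 change of the 9 was 2.46 where that of all genes was 0.01. Beside these results, 5 microglial markers summed to 0.352 and 0.539 CPM in the WT and to 189 and 244 CPM in the stabilized posterior pituitary EC libraries, and 10 endothelial markers to 15100 and 17800 against 7490 and 8820. The part of these cell-type differences in the results was not tested. In GFP-negative cells of the posterior pituitary, Slc7a5 had 3.73 and 15.9 CPM in WT and 16.3 and 14.5 in stabilized mice, below both stabilized EC libraries.

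Stabilized pituitary ECs were below WT cerebellum ECs for most of these genes. These comparisons share the WT cerebellum and the stabilized libraries with those above. The paper reports that Cre recombined only part of the ECs in stained pituitaries, so stabilized libraries may hold RNA of unrecombined ECs. The part of such cells was not tested. Slc7a5 lay 1.31 lower on the log2 scale (SE 0.92), a difference that did not pass (edgeR adjusted p = 0.567). Of the 9 genes 5 were called lower in stabilized posterior pituitary ECs than in those of the WT cerebellum, against 1.54% of all genes. Slc38a5 differed by -6.00 (SE 0.95), Slc38a3 by -5.13 (SE 0.59), Slc1a1 by -4.33 (SE 0.82), Slc7a1 by -1.82 (SE 0.40) and Slc6a6 by -1.38 (SE 0.29), with edgeR adjusted p of 0.000397 to 0.0274. With 1 library left out at a time the call of Slc7a1 held only without the first cerebellum replicate and that of Slc6a6 only without the second replicate of either group. With the gene length offset Slc38a5 and Slc38a3 kept their calls, and Slc1a1, Slc6a6 and Slc7a1 had edgeR adjusted p of 0.0649, 0.0713 and 0.246. Stabilized anterior pituitary ECs also had 5 genes called lower, against 1.90% of all genes, namely Slc38a5, with 2 reads over both libraries, Slc1a1 (-5.61, SE 0.87), Slc38a3 (-5.60, SE 0.60), Slc6a6 (-3.61, SE 0.32) and Slc7a1 (-3.02, SE 0.42). Slc7a5 did not pass there (-1.58, SE 0.92, edgeR adjusted p = 0.541), and was called lower without the library labelled with both lobes (-2.31, edgeR adjusted p = 0.0263). Mural cell markers summed to 3170 and 3020 CPM in WT cerebellum ECs against 376 and 292 in stabilized posterior and 1080 and 990 in stabilized anterior pituitary ECs, and microglial markers to 3.76 and 1.4 against 244 and 189 and against 66.0 and 173. Endothelial markers summed to 11300 and 11900 CPM in WT cerebellum ECs and to 7490 and 8820 in stabilized posterior pituitary ECs. The part of these markers' cells in the differences was not tested.

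In anterior pituitary ECs 0 of the 9 genes were called between genotypes by edgeR, against 0.458% of all genes. At an unadjusted edgeR p under 0.05 there were 2, against 6.99% of all genes, and DESeq2 called Slc7a1, against 3.46%. Slc7a5 nevertheless had 269 and 634 CPM in the stabilized libraries against 79.5 and 84.4 in WT, with no overlap (log2 2.45, SE 0.95, edgeR adjusted p = 0.596). Slc7a1 had 87.6 and 139 against 34.0 and 63.4 CPM (1.21, SE 0.40, edgeR adjusted p = 0.417). The stabilized library whose labels name both lobes is the one with 634 CPM of Slc7a5: without it the change was 1.72 (edgeR adjusted p = 0.234), and without the other stabilized replicate it was 2.95 (edgeR adjusted p = 0.000457). Slc7a1 likewise was called without that other replicate (1.51, edgeR adjusted p = 0.0254) and stood at 0.85 without the library in question. Slc38a3, at 24.4 and 23.5 in WT and 13.7 and 10.4 CPM in stabilized ECs, and Slc1a1, at 12.1 and 14.1 against 5.44 and 3.78, were lower in both stabilized libraries without passing the test (-1.0, SE 0.50 and -1.51, SE 0.74, edgeR adjusted p = 0.698 for both). These genes were thus in the opposite order from the posterior pituitary, but the difference between the lobes' effects did not pass for either (Slc38a3 3.90, SE 0.75, edgeR adjusted p = 0.0789, and Slc1a1 3.97, SE 1.07, edgeR adjusted p = 0.259), nor for the other 7, against 0.128% of all genes called. At an unadjusted edgeR p under 0.05 there were 4 of the 9, against 9.09% of all genes, and DESeq2 called 3, against 3.0%. Slc38a3 was called in 7 of the 8 fits without 1 library, and Slc1a1 and Slc7a5 in 4 each. Slc38a5 had 0 reads in WT and 2 reads over both stabilized anterior libraries. Microglial markers summed to 1.52 and 4.69 CPM in the WT and to 66.0 and 173 CPM in the stabilized anterior EC libraries, whose part in these values was not tested.

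Cerebellum ECs, which have a blood-brain barrier in WT mice, gave 0 of 9 calls with edgeR and with DESeq2, against 0.648% and 5.52% of all genes, and 1 gene at an unadjusted edgeR p under 0.05, against 9.77%. Slc7a5 had 1110 and 1200 CPM in stabilized and 1120 and 1550 in WT ECs, and the pairs overlapped. Slc7a1 had 1660 and 1920 CPM against 655 and 1160 in WT, which do not overlap, with a log2 change of 0.96 (SE 0.40, edgeR adjusted p = 0.456). Slc38a5 had 146 and 87.5 against 145 and 374 CPM (-1.18, SE 0.77, edgeR adjusted p = 0.588). The change of Slc7a5 in the posterior pituitary exceeded that in the cerebellum by 6.32 (SE 1.39), which fell short of the threshold over all genes (edgeR adjusted p = 0.0595) and passed in each of the 8 fits that left out 1 library, at 5.37 to 11.36. In this difference 0 of 9 genes were called by edgeR, against 0.927% of all genes, 3 by DESeq2, against 6.81%, and 5 stood at an unadjusted edgeR p under 0.05, against 13.8%. For the anterior pituitary minus the cerebellum 0 of 9 genes were called by edgeR and by DESeq2, against 0.519% and 4.39% of all genes, with 0 at an unadjusted edgeR p under 0.05, against 11.7%.

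**Figure D2:**
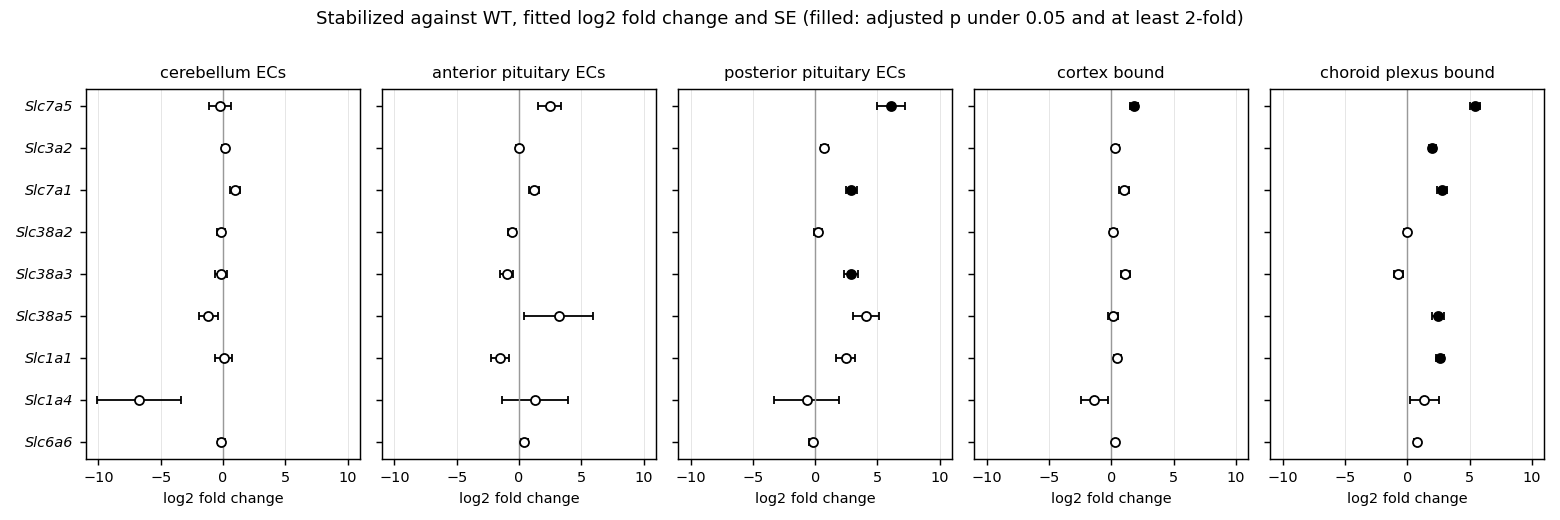
Fitted log2 fold change of stabilized over WT with its SE for each of the 9 genes in the 3 sorted EC populations and the 2 RiboTag bound fractions, with filled points for calls at an adjusted p under 0.05 and at least 2-fold. Slc7a5 and Slc7a1 are filled in posterior pituitary ECs (6.10 and 2.91) and in choroid plexus bound RNA (5.41 and 2.78), and no gene is filled in cerebellum or anterior pituitary ECs.

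RiboTag measured the RNA on EC ribosomes in other tissues and other mice. In the choroid plexus 5 of the 9 genes rose in bound RNA of stabilized mice, against 0.656% of the 16775 genes tested that were called higher (0.852% in either direction), and the median log2 change of the 9 was 2.01 against -0.09 for all genes. Slc7a5 had 11.1 and 14.4 CPM in WT and 554 and 596 in stabilized bound RNA, a log2 change of 5.41 (SE 0.39, edgeR adjusted p = 0.00125). Slc3a2 went from 101 and 111 to 466 and 438 CPM, by 2.01 (SE 0.29, edgeR adjusted p = 0.0156), so that the transcripts of both subunits of the heterodimer rose in bound RNA. In choroid plexus input Slc3a2 had 135 and 139 CPM in WT and 159 and 147 in stabilized mice and did not pass (0.13, SE 0.12, edgeR adjusted p = 0.863). Slc7a1 rose from 38.3 and 19.0 to 212 and 208 CPM, by 2.78 (SE 0.42, edgeR adjusted p = 0.0192), and Slc1a1 from 3.61 and 2.71 to 22.9 and 18.2 CPM, by 2.61 (SE 0.32, edgeR adjusted p = 0.00833). Slc38a5 rose from 1.20 and 1.36 to 7.66 and 7.32 CPM, by 2.46 (SE 0.46, edgeR adjusted p = 0.0494), and passed in none of the 4 fits that left out 1 library (edgeR adjusted p = 0.0644 to 0.184), nor with the replicate number as a block (edgeR adjusted p = 0.0653) or among these 4 libraries alone (0.252). Slc3a2 lost its call without the first WT replicate (edgeR adjusted p = 0.068). In all 5 genes each stabilized library was above each WT library.

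The other 4 genes did not pass in the choroid plexus. Slc6a6 had 110 and 111 CPM in WT and 194 and 201 in stabilized bound RNA (0.76, SE 0.25, edgeR adjusted p = 0.229), Slc38a3 had 194 and 184 against 143 and 101 (-0.72, SE 0.36, edgeR adjusted p = 0.423), Slc38a2 had 81.6 and 94.7 against 116 and 69.0, and Slc1a4 had 2.64 and 0.247 against 7.40 and 0.678. With an offset for gene length Slc7a5 alone kept its call, and Slc3a2, Slc7a1, Slc38a5 and Slc1a1 had edgeR adjusted p of 0.105 to 0.169 with log2 changes of 1.73 to 3.30. Bound RNA was not purely endothelial. Markers of the choroid plexus epithelium summed to 37800 and 38300 CPM in WT and to 24800 and 21600 CPM in stabilized bound RNA, and 10 endothelial markers to 2350 and 3160 against 4450 and 3880 CPM. The part of this shift in the results was not tested.

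In cortex bound RNA only Slc7a5 was called, 1 of 9 against 3.65% of all genes called higher. It had 185 and 102 CPM in WT and 471 and 531 in stabilized mice (1.81, SE 0.33, edgeR adjusted p = 0.0143). Slc7a1 (227 and 123 against 388 and 323 CPM) and Slc38a3 (91.8 and 44.5 against 166 and 130 CPM) did not overlap between genotypes but did not pass (1.03, SE 0.39, edgeR adjusted p = 0.157, and 1.12, SE 0.37, edgeR adjusted p = 0.106). Both were called once the first WT replicate was left out, at 1.62 and 1.82. Slc6a6 (564 and 413 against 630 and 549 CPM), Slc3a2 (266 and 161 against 265 and 261 CPM), Slc1a1 (91.0 and 70.9 against 120 and 101 CPM) and Slc38a5 (55.7 and 29.4 against 44.5 and 49.4 CPM) had log2 changes of 0.15 to 0.47. Slc1a4 was lower in both stabilized libraries, at 6.69 and 5.86 against 17.5 and 15.5 CPM, without passing the test (-1.37, SE 1.09, edgeR adjusted p = 0.507). On mean TPM 6 of the 9 genes had the opposite sign in this comparison, in which the 4 libraries that stand apart are the WT side. Endothelial markers summed to 2630 and 1230 CPM in WT and to 3900 and 3990 CPM in stabilized cortex bound RNA, with the lowest value in the WT replicate in which each of the 9 genes but Slc38a2 was also the lower of the pair. Its part in the differences was not tested.

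The change in the choroid plexus exceeded that in the cortex for 2 of the 9 genes, against 0.864% of all genes, and DESeq2 called 6, against 6.84% of all genes in either direction. Slc7a5 differed by 3.60 (SE 0.47, edgeR adjusted p = 0.00881) and Slc1a1 by 2.14 (SE 0.42, edgeR adjusted p = 0.0404). Slc7a5 kept this call in all 8 fits without 1 library and Slc1a1 in 3 of 8, and neither kept it with the gene length offset (edgeR adjusted p = 0.0555 and 0.0615). In WT mice bound RNA of the cortex was higher than that of the choroid plexus for Slc38a5 (by 5.11, SE 0.48), Slc1a1 (4.72, SE 0.34), Slc7a5 (3.56, SE 0.36), Slc7a1 (2.66, SE 0.42), Slc6a6 (2.20, SE 0.26) and Slc3a2 (1.07, SE 0.29), and lower for Slc38a3 (-1.41, SE 0.37), with edgeR adjusted p of 2.92e-05 to 0.0193. That is 7 of 9 genes called, against 29.7% of all genes. Slc3a2 kept this call in 1 of the 4 fits without 1 library, at 0.59 to 1.38, and Slc38a3 fell under 2-fold without the second cortex replicate, at -0.99. Beside these differences 5 neuronal markers summed to 1710 and 2330 CPM in WT cortex and to 79.6 and 42.3 in WT choroid plexus bound RNA, and 5 microglial markers to 1860 and 1340 against 119 and 117. Oligodendrocyte markers summed to 1810 and 1970 CPM against 104 and 123, and in the other direction, that of Slc38a3, choroid plexus epithelium markers to 17.4 and 11.5 against 37800 and 38300. Their part in the differences was not tested. The WT cortex bound libraries are also among the 4 that stand apart, with Gm23935 at 0.409% and 0.406% of TPM against 50.7% and 46.8% in WT choroid plexus bound RNA. Tissue cannot be told apart from that difference between libraries here.

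**Figure D3:**
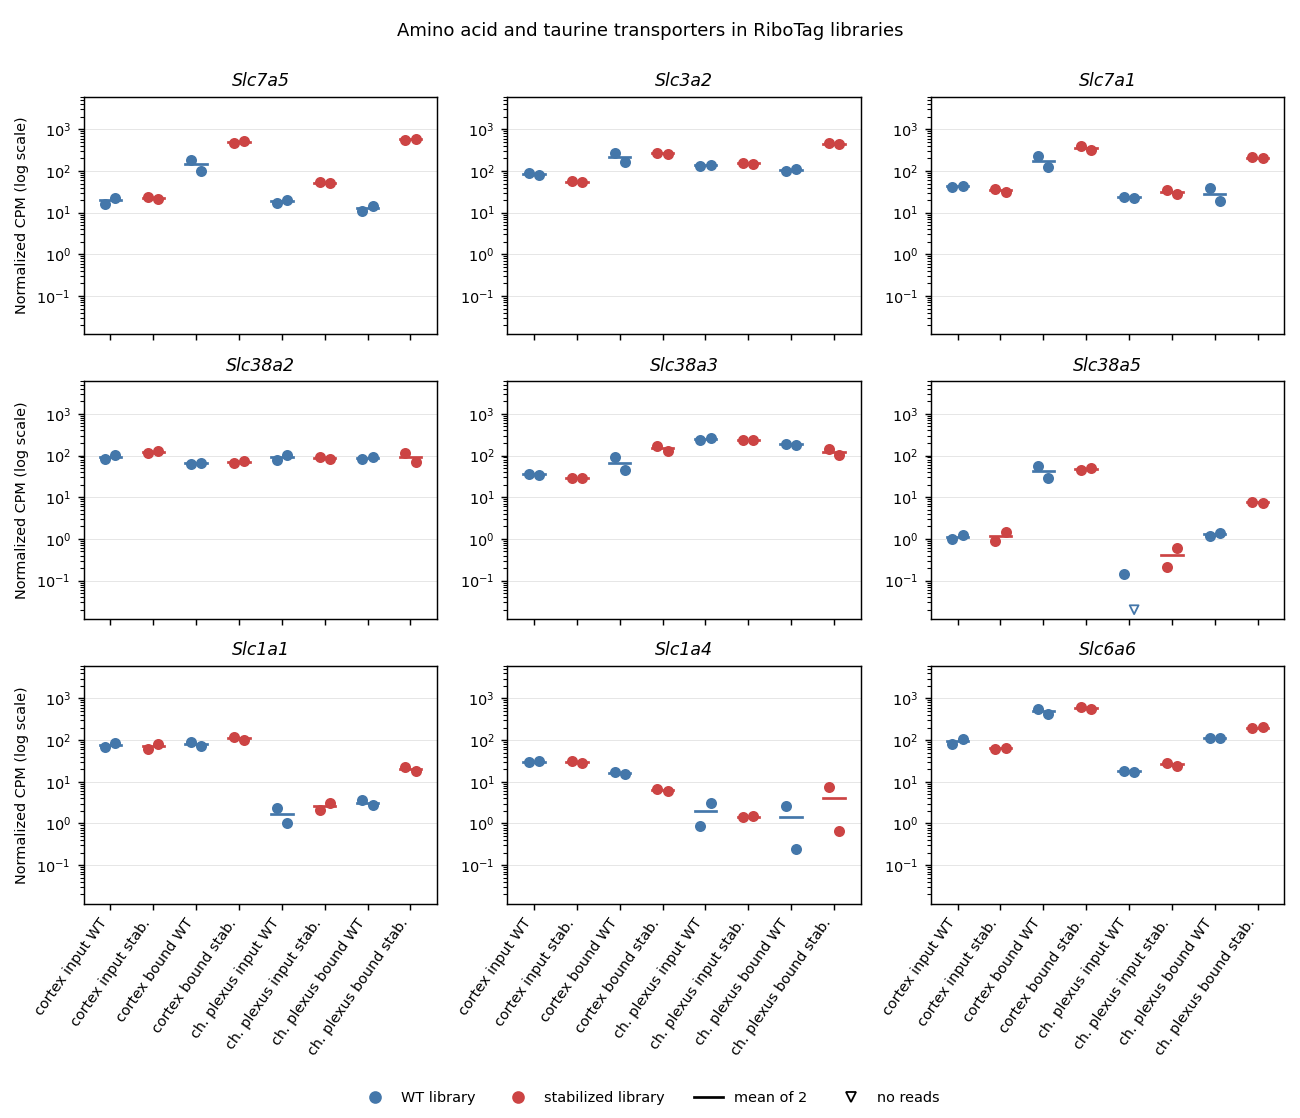
Normalized CPM of each of the 9 genes in the 16 RiboTag libraries, on a log scale, by tissue, fraction (input RNA of the tissue, RNA bound to tagged EC ribosomes) and genotype, with a line for the mean where both libraries had reads and an open triangle for no reads. In choroid plexus bound RNA Slc7a5 goes from 11.1 and 14.4 in WT to 554 and 596 in stabilized mice, and its input from 17.0 and 20.4 to 53.8 and 50.7.

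GFP-positive and GFP-negative cells were compared within each tissue, and differences between tissues in this contrast were not tested. In WT cerebellum 6 of the 9 genes were called higher in GFP-positive than in GFP-negative cells, against 4.46% of the 21343 genes tested. These were Slc38a5 (by 7.05, SE 1.26), Slc7a1 (5.63, SE 0.56), Slc6a6 (5.14, SE 0.42), Slc7a5 (4.44, SE 1.0), Slc1a1 (3.63, SE 0.96) and Slc3a2 (1.43, SE 0.36). Slc38a3 was abundant on both sides, with 453 and 705 CPM in ECs and 214 and 213 in parenchyma, where astrocytes are known to use it. Slc1a4 had 57.4 and 36.4 CPM in the parenchyma of the cerebellum against 0.813 and 11.1 in its ECs and 17.1 to 38.6 CPM in the parenchyma of both WT pituitary lobes. In the WT anterior pituitary 3 genes were called higher in GFP-positive cells, against 5.46%, namely Slc3a2 (by 2.33, SE 0.37), Slc38a3 (7.27, SE 1.46) and Slc1a1, which had 877 reads over both EC libraries and 1 over both parenchyma libraries. The posterior pituitary also had 3, against 7.07%, namely Slc3a2 (2.15, SE 0.37), Slc6a6 (1.59, SE 0.36) and Slc1a1, at least 33.9-fold higher against a floor of 3 counts over its parenchyma libraries. Slc7a5 and Slc7a1 were among the called genes in neither lobe. Without 1 library the calls of Slc3a2 and Slc1a1 in the cerebellum were lost in 1 fit each (without the second and the first GFP-negative replicate, edgeR adjusted p = 0.137 and 0.0816), and that of Slc1a1 in the posterior pituitary without the first WT EC replicate (0.122). Among the 4 libraries of the posterior pituitary alone Slc3a2 kept its call, Slc6a6 did not (edgeR adjusted p = 0.0757) and Slc1a1 did not pass the filter on low counts. Without the first WT EC replicate Slc7a5 was called lower in posterior pituitary ECs than in parenchyma, at -5.21. Mural cell markers were also higher in the GFP-positive fraction, at 3170 and 3020 against 524 and 386 CPM in the cerebellum, 796 and 918 against 152 and 107 in the anterior and 565 and 548 against 37.1 and 19.0 in the posterior pituitary, and their part in these calls was not tested.

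Bound RNA of the WT cortex was higher than input for Slc38a5 (5.21, SE 0.50), Slc7a5 (2.86, SE 0.28), Slc6a6 (2.39, SE 0.20), Slc7a1 (2.04, SE 0.32) and Slc3a2 (1.34, SE 0.21), 5 of 9 genes against 7.46% of 18241. Slc1a1 did not pass there (0.10, SE 0.28, edgeR adjusted p = 0.862). Endothelial markers summed to 2630 and 1230 CPM in bound RNA and to 82.1 and 62.4 in input, and microglial markers likewise to 1860 and 1340 against 85.4 and 69.4, whose part in these calls was not tested. In the WT choroid plexus 2 of 9 were, Slc38a5 (21 reads over both bound and 1 over both input libraries) and Slc6a6 (2.62, SE 0.21, edgeR adjusted p = 6.28e-06), against 8.67%. The Slc38a5 call was lost without the second input replicate (edgeR adjusted p = 0.0799), with the gene length offset (0.168) and among these 4 libraries alone (0.0525). Microglial markers summed to 119 and 117 CPM in choroid plexus bound RNA and to 20.4 and 25.0 in input, and epithelial markers to 37800 and 38300 against 143000 and 158000, whose part was not tested. Slc38a3 was as high in choroid plexus input, at 241 and 264 CPM, as in bound RNA, at 194 and 184.

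GFP-negative cells and input RNA were compared between genotypes in the same way. By edgeR 0 of the 9 genes were called between stabilized and WT GFP-negative cells of the cerebellum, the anterior or the posterior pituitary, where 0.760%, 0.0408% and 0.133% of genes were called. At an unadjusted edgeR p under 0.05 there was 1 gene in each tissue, against 10.9%, 5.51% and 9.94% of all genes. This was Slc3a2 in the cerebellum (505 and 178 CPM in WT, 203 and 168 in stabilized mice), and Slc1a1 in the lobes. Slc1a1 had 0 and 0.0276 CPM in WT and 1.42 and 0.786 in stabilized anterior parenchyma, and no reads in WT and 5.68 and 2.52 CPM in stabilized posterior parenchyma. DESeq2 called Slc1a1 in the anterior and the posterior lobe, against 1.69% and 4.83% of all genes, and 0 of the 9 in the cerebellum, against 5.90%. Input RNA likewise gave 0 of 9 calls in the cortex, against 11.8%, and in the choroid plexus, against 0.106%, with 3 genes each at an unadjusted edgeR p under 0.05, against 38.2% and 7.41% of all genes. DESeq2 gave 0 calls in cortex input, against 12.7%, and 1 in choroid plexus input, against 0.802%. Slc7a5 came close in choroid plexus input, from 17.0 and 20.4 to 53.8 and 50.7 CPM (1.45, SE 0.18, edgeR adjusted p = 0.0524), and in cortex input Slc3a2 differed by less than 2-fold (-0.52, SE 0.12, edgeR adjusted p = 0.0161).

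Levels of different genes can be set side by side only per length, and here the transcript models matter. In WT cerebellum ECs the order by TPM was Slc3a2 (1120 and 1910), Slc6a6 (270 and 397), Slc7a5 (254 and 375), Slc38a3 (200 and 216), Slc38a5 (68.7 and 122), Slc7a1 (65.0 and 100), Slc1a1 (48.3 and 60.5), Slc38a2 (9.37 and 19.2) and Slc1a4 (0.128 and 1.5). Slc6a6 and Slc7a5 overlapped in their range, as did Slc38a5 and Slc7a1. Much of the Slc3a2 TPM lay on short models, with 32.3% on Slc3a2-204, of 239 bases, and 27.6% on Slc3a2-205, of 402 bases. In WT choroid plexus bound RNA Slc3a2-204 carried 68.8%. For Slc7a5 the coding transcript Slc7a5-201 carried 57.7% and the retained-intron model Slc7a5-202 42.3% in WT cerebellum ECs. In stabilized posterior pituitary ECs Slc7a5-201 carried 80.8%, and in stabilized choroid plexus bound RNA 34.0%, beside 41.6% on Slc7a5-203, a model of 174 bases. Slc7a1-201, the long coding transcript, carried 78.7% of Slc7a1 TPM in WT cerebellum ECs and 26.5% in WT and 60.0% in stabilized posterior pituitary ECs. Slc6a6-201 carried 56.3% to 81.3% of Slc6a6 TPM in all 10 EC groups, and Slc38a2-201 69.2% to 98% of Slc38a2 TPM. Slc1a1 had 38.4% on the coding Slc1a1-201 and 52.4% on the retained-intron model Slc1a1-205 in WT cerebellum ECs, and Slc38a3 had 63.8% on the coding Slc38a3-209 there but 48.0% on Slc38a3-213, a model annotated for nonsense-mediated decay, in WT choroid plexus bound RNA. Slc38a5 was mainly Slc38a5-201 where it was abundant, at 92.9% in WT cerebellum ECs, and Slc1a4 was mainly on Slc1a4-201 in each EC group but stabilized cortex bound RNA, where Slc1a4-202 carried 50.0%.

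The chromatin of the 9 genes was examined in the ATAC-seq peak lists of the GFP-positive cells, where a peak counted if both replicates listed it with more than 2-fold enrichment and with a -log10 q above 2. A peak within 1 kb of an annotated transcript start was present at 8 of the 9 genes in the cerebellum and the anterior pituitary and at 7 in the posterior pituitary, in both genotypes, against 50.4% to 58.2% of all protein-coding genes. Slc38a5 lacked one in each tissue, also in the cerebellum where its RNA was abundant, and Slc1a1 lacked one in the posterior pituitary. Stabilized ECs gained peaks in the body or within 10 kb of 7 of the 9 genes in at least one tissue, against 29.8% of 22015 protein-coding genes, with 19 gained peaks in all, and 0 peaks of the 9 genes were lost. Slc38a5 and Slc1a4 had none gained. Over the whole genome gained peaks also outnumbered lost ones, with 5093 against 670 in the cerebellum, 2767 against 1872 in the anterior and 7437 against 539 in the posterior pituitary.

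By tissue, 5 genes had gained peaks in the posterior pituitary (9 peaks, at Slc7a5, Slc7a1, Slc38a3, Slc1a1 and Slc6a6), against 19.4% of 22015 protein-coding genes, 5 had them in the anterior pituitary (5 peaks, at Slc7a5, Slc7a1, Slc38a2, Slc1a1 and Slc6a6), against 8.09%, and 3 had them in the cerebellum (5 peaks, at Slc3a2, Slc7a1 and Slc38a3), against 15.7%. Lost peaks were at 0 of 9 genes in each, against 1.20%, 5.64% and 1.71%. These counts rest on both replicates. When a single replicate stood for a group, 16 to 25 peaks were gained at the 9 genes in the posterior pituitary, and 5 were lost in the anterior pituitary.

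The sites upstream of Slc7a5 and inside Slc7a1 and Slc1a1, whose sequences are given above, were shared by both lobes. At Slc7a5 the fold enrichment in cerebellum ECs was 6.86 and 5.31 in WT mice and 11.68 and 9.45 in stabilized mice, 5.99 and 5.81 in stabilized anterior and 4.60 and 4.15 in stabilized posterior pituitary ECs, and no peak was listed in the 4 WT pituitary libraries. The Slc7a1 site had 12.09 and 7.34 in WT cerebellum ECs, 13.63 and 12.60 in stabilized ones, 8.70 and 11.36 in the stabilized anterior and 7.58 and 4.88 in the stabilized posterior lobe. The Slc1a1 site had 4.91 and 4.65 in WT cerebellum ECs, 8.67 and 7.83 in stabilized ones, 4.49 and 3.95 in the stabilized anterior and 5.08 and 3.18 in the stabilized posterior lobe. At each of the 3 sites both stabilized cerebellum libraries were above both WT ones. The share of all peaks with this order was not counted, and the stabilized cerebellum libraries listed more peaks in all (33514 and 31669 against 26394 and 24020). Fold enrichment compares a peak with the background of its own library, so that levels in different libraries are side by side and not tested. Of the RNA of these 3 genes, Slc7a5 and Slc7a1 rose in the posterior lobe and Slc1a1 did not pass there, and none passed in the anterior lobe.

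**Figure D4:**
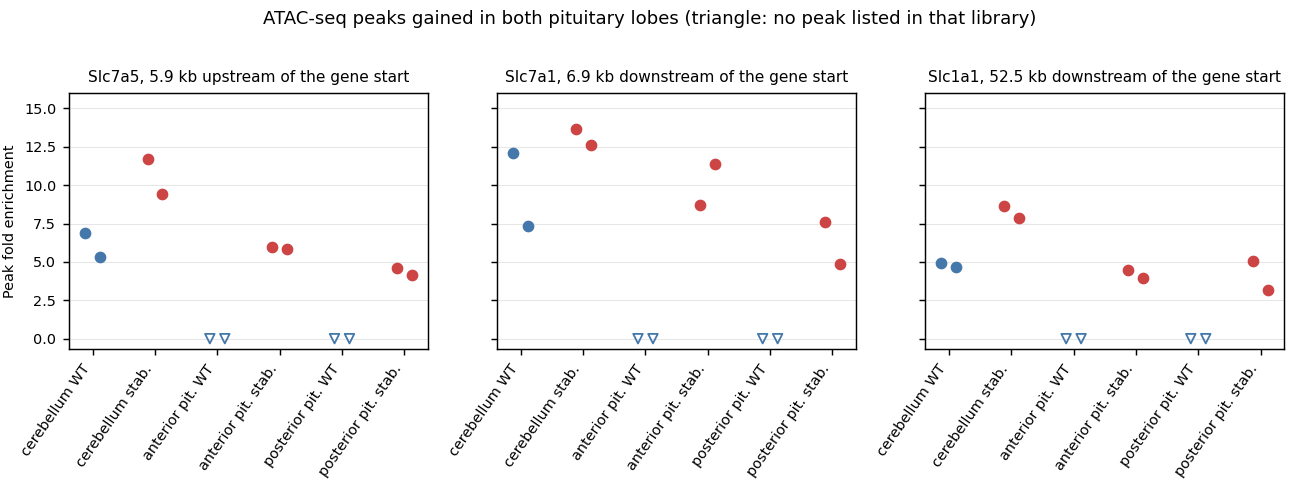
Fold enrichment of the ATAC-seq peak in each of the 12 libraries at the sites near Slc7a5, Slc7a1 and Slc1a1, with distance from the gene start in kb in each title, WT libraries in blue, stabilized libraries in red, and an open triangle at 0 where no peak is listed. All 4 WT pituitary libraries lack a peak at each site, and the stabilized pituitary libraries range from 3.18 to 11.36.

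Matches to TTCAAAG or ATCAAAG on either strand within 100 bp of the strongest summit were present in 5 of the 19 gained peaks at the 9 genes. These were the shared Slc7a1 site in both lobes, the Slc7a5 site in the posterior pituitary, where the summit lay closer to the match than in the anterior lobe, and a pair of intronic Slc7a1 sites in the cerebellum. Among all gained peaks 15.0% held a match in the posterior pituitary, 21.7% in the anterior pituitary and 12.9% in the cerebellum, against 3.09%, 4.37% and 7.48% of all WT peaks in the same tissues.

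Other amino acid transporters were followed in a list of 46 genes, of which 32 were tested in ECs of the sorted tissues and 37 in bound RNA. The list was drawn up with earlier results of these data known. In posterior pituitary ECs 3 rose and 1 fell with stabilization, 4 of 32 where 1.79% of all genes were called. The one that fell was Slc38a10 (-1.54, SE 0.34, edgeR adjusted p = 0.0402), named after its value was seen. Slc7a11, the cystine and glutamate exchanger xCT, rose from 0.15 and 3.22 to 310 and 426 CPM (log2 7.83, SE 1.04, edgeR adjusted p = 0.00214). Slc7a3 (CAT3), a cationic amino acid carrier like Slc7a1, had no read in the WT libraries and 40.2 and 30.2 CPM in the stabilized ones, at least 530-fold higher against a floor of 3 counts over the WT group, and Slc7a8 (LAT2), which also pairs with SLC3A2, rose from 0.450 and 0 to 55.7 and 73.1 CPM (7.96, SE 1.66, edgeR adjusted p = 0.0339). Slc7a3 had 44.0 and 65.7 CPM in WT cerebellum ECs, while Slc7a11 had 2.13 and 4.02 and Slc7a8 5.95 and 12.6 there, so that both stabilized posterior pituitary libraries were above both WT cerebellum libraries for Slc7a11 and Slc7a8. The microglial markers given above, at 244 and 189 CPM in the stabilized libraries against 0.539 and 0.352 in the WT ones, moved the same way as these 3 genes, and their part was not tested. The median of the 32 genes was 0.00, beside 0.01 for all genes, and the 9 followed here stood at 2.46. By edgeR none of the tested genes was called in cerebellum ECs, anterior pituitary ECs or choroid plexus bound RNA, where 0.648%, 0.458% and 0.852% of all genes were. Cortex bound RNA had 1 higher and 4 lower of 37, where 3.65% and 2.67% of all genes were. Among the 4 were the GABA transporter Slc6a11 (-1.99, SE 0.49, edgeR adjusted p = 0.0438) and the neutral amino acid carrier Slc6a15 (-1.62, SE 0.40, edgeR adjusted p = 0.0442). Here neuronal markers summed to 1710 and 2330 CPM in WT and 945 and 870 CPM in stabilized libraries, whose part was not tested. Also called there, and named after their values were seen, were Slc38a6 (1.07, SE 0.24) and Slc38a1 (-1.07, SE 0.24). In cortex input 2 were higher and 2 lower of 33 tested, where 11.8% of all genes were called, with the glycine transporter Slc6a5 at 1.16 and 2.74 CPM in WT and 48.0 and 36.7 in stabilized libraries (4.52, SE 0.43, edgeR adjusted p = 0.000894), Slc7a10 at 6.87 and 10.8 against 32.1 and 23.2 (1.74, SE 0.23) and the proline transporter Slc6a7 at 57.2 and 67.7 against 27.7 and 24.5 (-1.17, SE 0.33), and Slc7a6 (-1.15, SE 0.20), named after its value was seen.

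A list of 17 genes of the amino acid response, the transcripts that ATF4 raises when amino acids are short, was compared between stabilized and WT mice. It gave no call in ECs of the cerebellum, anterior pituitary or posterior pituitary or in choroid plexus bound RNA. Of all genes 0.648%, 0.458%, 1.79% and 0.852% were called there, so few calls could be looked for among 17. The median log2 changes were -0.23, 0.12, 0.23 and -0.15, beside -0.08, 0.06, 0.01 and -0.09 for all genes. In cortex bound RNA 1 was higher and 1 lower of 17, where 3.65% and 2.67% of all genes were. Cebpb, a transcription factor gene, had 0 and 1.38 CPM in WT and 19.2 and 25.4 in stabilized libraries (5.02, SE 1.01, edgeR adjusted p = 0.0215), and Phgdh, of serine synthesis, 47.2 and 33.4 against 9.13 and 13.7 (-1.80, SE 0.46, edgeR adjusted p = 0.0499). Oligodendrocyte markers were also lower there, at 707 and 871 CPM in stabilized against 1810 and 1970 in WT libraries, as were the neuronal markers given above, and their part was not tested. Cebpb was also higher in cortex input (3.57, SE 0.60, edgeR adjusted p = 0.00523), as was Ddit3 (1.05, SE 0.20, edgeR adjusted p = 0.00931), and these 2 of 17 are near the 11.8% of all genes called in that comparison.

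The genes whose log2(TPM + 1) followed each member most closely over the 12 EC libraries were sought among 6393 genes with a mean of at least 10 TPM. The 12 libraries share their tissue groups and the TPM scale, so the coefficients are descriptions. Slc7a5 was closest to Cadm1 (Pearson r 0.971), Mt1 (0.947) and Tpd52 (0.947). Slc38a5 was closest to Bsg (0.984), Srarp (0.976) and Foxq1 (0.967), Slc1a1 to Slc22a8 (0.98) and Foxc1 (0.979), and Slc38a3 to Slc1a1 itself (0.938) and Mboat1 (0.934). Slc7a1 was closest to Foxq1 (0.950), Ddc (0.945) and Rad54b (0.943), and Slc6a6 to Rassf9 (0.983), Cxcl12 (0.979) and Akr1c14 (0.977). Slc3a2 was closest to Golga4 (0.944), Metap2 (0.928) and Aplp2 (0.924), and its coefficient with its partner Slc7a5 was 0.0834. That coefficient rests on TPM, on which some differences of Slc3a2 turned sign against counts. On normalized CPM both genes had their lowest EC mean in the WT posterior pituitary (416 for Slc3a2, 7.67 for Slc7a5). Their highest means were in the cerebellum (922 and 1340 in WT, 1050 and 1160 in stabilized ECs). Slc38a2 was closest to Fchsd2 (0.932), Fos (0.923) and Ifrd1 (0.914), and Slc1a4, which was barely detected, to Gm29216 (0.867), Gm28911 (0.848) and Prr13 (0.815).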

How the data were processed

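The authors quantified the RNA libraries with Salmon 0.10.2 (bias corrections for GC, sequence and position switched on) against mouse transcripts (GRCm38), and deposited for each transcript an estimated count, its TPM and an effective length in bases. Kallisto 0.44.0 is also named in the submitters' processing notes. For ATAC-seq the authors aligned with Bowtie2 2.3.2, removed duplicates with Picard and called peaks per library with MACS2 2.1.1.20160309 after shifting read ends for the transposase cut, and deposited for each peak a fold enrichment (ratio to local background), the -log10 of its p and q, and a score of 10 times the -log10 q, which was not used.

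Estimated counts were summed per gene through GENCODE M21 (130338 of 130740 transcripts matched) and rounded to whole numbers. edgeR 4.0.16 (R 4.3.3) quasi-likelihood tests with TMM scaling, filterByExpr and Benjamini-Hochberg adjustment over all genes were fitted on all GFP-positive, GFP-negative, sorted, bound, input or RiboTag libraries, as each comparison needs. The threshold for a call was 2-fold with an adjusted p below 0.05, and the SE is the log2 change over the root of its F. The depth ranges stand with the results. By the study's methods input was an aliquot of the homogenate used for bound RNA, and GFP-positive and GFP-negative cells came from one sort, so that same-numbered fractions of a tissue and genotype were taken as pairs in an alternative fit. Their deviations from the group means correlated at 0.049 to 0.143 (bound and input) and -0.004 to 0.091 (sorted fractions). Alternatives were DESeq2 1.42.0, RLE scaling, no filter, a gene length offset, the replicate number as a block, only the groups compared, and leaving out each replicate. A log2 ratio of mean TPM (pseudocount 0.1) was added after the TPM scale was seen to differ between libraries. Peaks were matched to genes within 10 kb, with an overlap of at least 1 bp. Each script that tested across genes was tested on simulated data. For stabilized against WT posterior pituitary ECs, 0 of 48 simulated 2-fold changes, 7 of 48 4-fold changes and 25 of 49 16-fold changes were called. For choroid plexus bound RNA these were 0 of 48, 12 of 44 and 27 of 48. A result that did not pass is therefore no sign that a gene was unchanged. Sequences are from the GRCm38 genome.

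The members and lists were chosen with earlier results of these data known. Named genes were the 9 members, in each comparison of stabilized with WT the up to 3 called genes of each list with the largest absolute log2 change, for each member the 3 genes most like it, and transcripts with at least 10% of a member's TPM in any EC group. Some genes that this rule names are not reported here.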

Additional observations from a re-analysis of the deposited data

Results flagged for a closer look

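The effect of stabilization on bound RNA passed a test of the difference between choroid plexus and cortex for Slc7a5 and, less stably, for Slc1a1. The log2 change in the choroid plexus minus that in the cortex was 3.60 for Slc7a5 (edgeR adjusted p = 0.00881) and 2.14 for Slc1a1 (edgeR adjusted p = 0.0404). In both tissues each stabilized library was above each WT one for both genes. Slc7a5 kept this call in each of the 8 fits without 1 library and Slc1a1 in 3 of 8 (edgeR adjusted p up to 0.131), and with the gene length offset neither passed (edgeR adjusted p = 0.0555 and 0.0615). The 4 WT cortex libraries stand apart in their TPM scale, and their part in these differences was not tested.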

How the results depend on the processing

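Of 2428 values of single genes under the other settings, 2224 kept their side of the threshold, 64 lost and 140 gained a call, and 0 called values turned sign. Sign turned in 117 values with no call on either side. On mean TPM, 34 of 225 values had the opposite sign, of which 1 was called on counts, Slc3a2 in WT cerebellum against posterior pituitary ECs (-0.07). With 2 replicates a group, a lone sample left in a group is assumed to vary like the others.

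DESeq2 called 1 gene in anterior pituitary ECs, 3 in each of the differences of the posterior from the anterior pituitary and from the cerebellum, 6 and 5 for GFP-positive against GFP-negative cells of the anterior and posterior pituitary, 1 in each pituitary GFP-negative comparison, 2 in cortex bound RNA, 6 for choroid plexus minus cortex and 1 in choroid plexus input. Without a filter these were 3, 4 and 5, 6 and 6, 1 (GFP-negative posterior pituitary), 3, 6 and 1, with 5 in posterior pituitary ECs, 5 between the WT lobes and 1 for the difference of the anterior pituitary from the cerebellum. The gene length offset gave 1 call in posterior pituitary ECs, Slc1a1 in place of the 3 genes called without it, 2 for stabilized posterior pituitary against WT cerebellum ECs, 1 in choroid plexus bound RNA, 0 for choroid plexus minus cortex and 1 for bound against input in the choroid plexus, and 1 in cortex input. With only the groups compared there were 1 in posterior pituitary ECs, 3 for WT cerebellum against posterior pituitary, 1 between the WT lobes, 5 and 1 for GFP-positive against GFP-negative cells of the anterior and posterior pituitary, 1 for bound against input and 1 for input in the choroid plexus. The cause of these shifts was not tested.

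Leaving out each replicate gave 0 to 2 calls in anterior and 2 to 5 in posterior pituitary ECs, 2 to 5 between the WT lobes, 3 to 4 for stabilized posterior pituitary against WT cerebellum ECs, 0 to 4, 1 to 4 and 0 to 1 for the differences of posterior from anterior, posterior from cerebellum and anterior from cerebellum, 3 to 5 for GFP-positive against GFP-negative posterior pituitary, 1 to 3 in cortex and 3 to 4 in choroid plexus bound RNA, 1 to 5 for choroid plexus minus cortex, and 1 to 2 for bound against input in the choroid plexus. In ATAC-seq it gave 11 to 15, 7 to 13 and 16 to 25 gained peaks in cerebellum, anterior and posterior pituitary, and 0 to 2, 5 and 0 to 1 lost ones.

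A fold enrichment over 4 and -log10 q over 5 gave 3 gained peaks in the cerebellum and 3 in the anterior pituitary. A window of 100 kb gave 11, 9 and 21 gained peaks in cerebellum, anterior and posterior pituitary and 2 lost in the anterior pituitary, and 2 kb around transcript starts 1, 1 and 2 gained.

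Across genotypes the samples share only a number. Both lobes came from the same pools of mice, but deviations of same-numbered lobe EC libraries of a genotype correlated at -0.013 and 0.011, and the block changed no call between the WT lobes. The replicate block moved the count of calls by over 1.5 times in the difference of posterior pituitary from cerebellum alone, from 0 to 1, and lost Slc38a5 in choroid plexus bound RNA. A replicate block within each preparation, which pairs GFP-positive with GFP-negative and bound with input libraries, changed no call in the 5 WT comparisons of these fractions.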
